A study of Homo sapiens with 12 samples.

Results

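The transcripts of 37 autophagy genes were followed in HUDEP-2, a human erythroid precursor line that was immortalised and whose survival and growth depend on the Kit receptor. The genes were chosen by symbol, by their known place in autophagy, and all 37 were found among the 54628 genes of the count table. Every one of the 37 also passed the filter on low counts that left 15492 genes to test. The 12 RNA-seq libraries formed 4 groups of 3 replicates. In all 4 groups the cells carried a lentiviral construct with dCas9-KRAB, a silencing form of Cas9 expressed from the EF1a promoter, together with 1 guide RNA, and were sorted as a GFP-positive population. The guide was either sgControl, a scrambled sequence, or sgEGR1, which directs CRISPR interference to an element upstream of EGR1. Before the experiment the cells were expanded with dexamethasone, stem cell factor (SCF), EPO and doxycycline. They were then starved for 5 h and treated for 1 h with PBS or with 50 ng/mL of SCF, the ligand of Kit, which gave the groups sgControl PBS, sgControl SCF, sgEGR1 PBS and sgEGR1 SCF. A single guide to EGR1 was used, and starved cells without any treatment or cells that were never starved were not analysed here. The comparison of SCF with PBS asks how these transcripts differed after 1 h of Kit signalling in starved cells, and the comparison of the guides asks whether they differed where EGR1 induction was reduced.

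Autophagy encloses cytoplasm in a double membrane, the autophagosome, and delivers it to the lysosome. The ULK1 kinase complex starts the process when nutrients or growth factors are short, a lipid kinase complex built on BECN1 and PIK3C3 then marks the forming membrane with PI3P, and a pair of ubiquitin-like conjugation systems attach proteins of the ATG8 family to it, where cargo receptors bind. Much of this control acts on proteins rather than on transcripts, through phosphorylation of ULK1 and of the transcription factor TFEB by mTORC1. Maturing red cells use the pathway to clear their mitochondria.

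The library totals lay between 23.5 and 32.04 megacounts. EGR1 itself measured 5.99 to 10.9 counts per megacount of library total (CPM) in the sgControl PBS libraries and 171 to 239 CPM after SCF. With sgEGR1 it measured 0.977 to 2.04 CPM after PBS and 40.4 and 57.4 CPM in replicates 1 and 2 after SCF, but 203.6 CPM in the library labelled sgEGR1 SCF replicate 3, which goes against its label. Replicate 1 of every group stood apart from the others. On the first principal component, which held 17.6% of the variance, its 4 libraries lay between -35.3 and -21.7 and the 8 others between 6.85 and 23.7. The labels name no batch, and each group held 1 such library. The 10 erythroid markers were all expressed, with a summed level of 8370 to 8954 CPM after PBS and 7795 to 8609 CPM after SCF. In the average SCF response 2 of the 10 were called lower (SLC4A1 and EPOR) and 0 higher, beside 3.45% and 5.58% of all genes tested. With a term for replicate 1 in the model 6 of the 10 were called lower, beside 8.29% of all genes. Megakaryocyte markers summed to 13.0 to 35.9 CPM, and myeloid and lymphoid markers reached at most 0.719 and 0.691 CPM. In such bulk samples, fewer cells of a type and less RNA per cell cannot be told apart. The methods describe the replicates as biological and isolated individually, but neither they nor the labels say that they came from separate cultures, so the p-values measure the spread between these samples, which may be technical.

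The summed level of the 37 transcripts was 2567 to 2696 CPM in the 6 PBS libraries and 2496.5 to 2634.5 CPM in the 6 SCF libraries, so that the ranges overlapped. Levels between genes were compared as mean CPM per kb of merged exon. By this measure GABARAP, an ATG8 protein, was highest at 58.6 CPM per kb, followed by the cargo receptor OPTN at 32.0, the lipid scramblase ATG9A at 30.5 and the cargo receptor NBR1 at 27.7. At the low end stood ATG7, the E1-like enzyme of both conjugation systems, at 2.33, the E2-like ATG10 at 1.10, the kinase ULK2 at 0.877 and TFEB at 0.240 CPM per kb. For 19 of the 37 genes an exon overlapped another annotated gene, on the opposite strand for 18 of them. The methods of the study describe the libraries as strand-specific. The counting step is not said to have used strand, so the levels of those genes are uncertain.

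Few of these transcripts were called after SCF, in both directions. With both guides averaged (6 PBS against 6 SCF libraries), ATG101 and ATG16L1 rose and ATG14, ATG9A and OPTN fell. That is 2 higher and 3 lower of 37, where edgeR called 9.03% of all 15492 genes, 5.58% as higher and 3.45% as lower. These counts are small, and whether the share among autophagy genes differs from that of all genes was not tested. The median log2 fold change of the 37 was -0.02, beside 0.00 for all genes tested. Positive values were found in 14 of the 37 (37.8%), beside 48.5% of all genes. Without overlap between the 6 and 6 libraries were 2 genes that were higher and 2 that were lower, beside 4.43% and 2.47% of all genes. The 32 genes that were not called had log2 fold changes between -0.16 and 0.28, and the 95% intervals of these genes ran from -0.41 to 0.64, so smaller changes could not be told from none. In sgControl cells alone (3 against 3), 2 were higher (ATG101 and ATG16L1) and 0 lower, where 2.89% of all genes were called (2.12% higher, 0.775% lower). In sgEGR1 cells alone, ATG101 was higher and ATG9A lower, where 2.59% of all genes were called (1.81% higher, 0.788% lower). The average shares its libraries with both single-guide comparisons and is not separate evidence for them. With a term for replicate 1 in the model, the average response held 4 higher and 6 lower autophagy genes, where 18.5% of all genes were called (10.2% higher, 8.29% lower). With the same term, sgControl cells held 3 higher and 3 lower, where 8.32% of all genes were called (5.28% higher, 3.04% lower), and sgEGR1 cells 3 higher and 4 lower, where 8.56% were called (5.04% higher, 3.52% lower). Without the library labelled sgEGR1 SCF replicate 3, which held EGR1 at the control level, the average response kept ATG101, ATG16L1, ATG14 and ATG9A (6.95% of all genes called), sgControl cells ATG101 alone (2.22%), and sgEGR1 cells 0 of the 37 (1.32%). Calls over all genes were thus fewer as well.

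**Figure D1:**
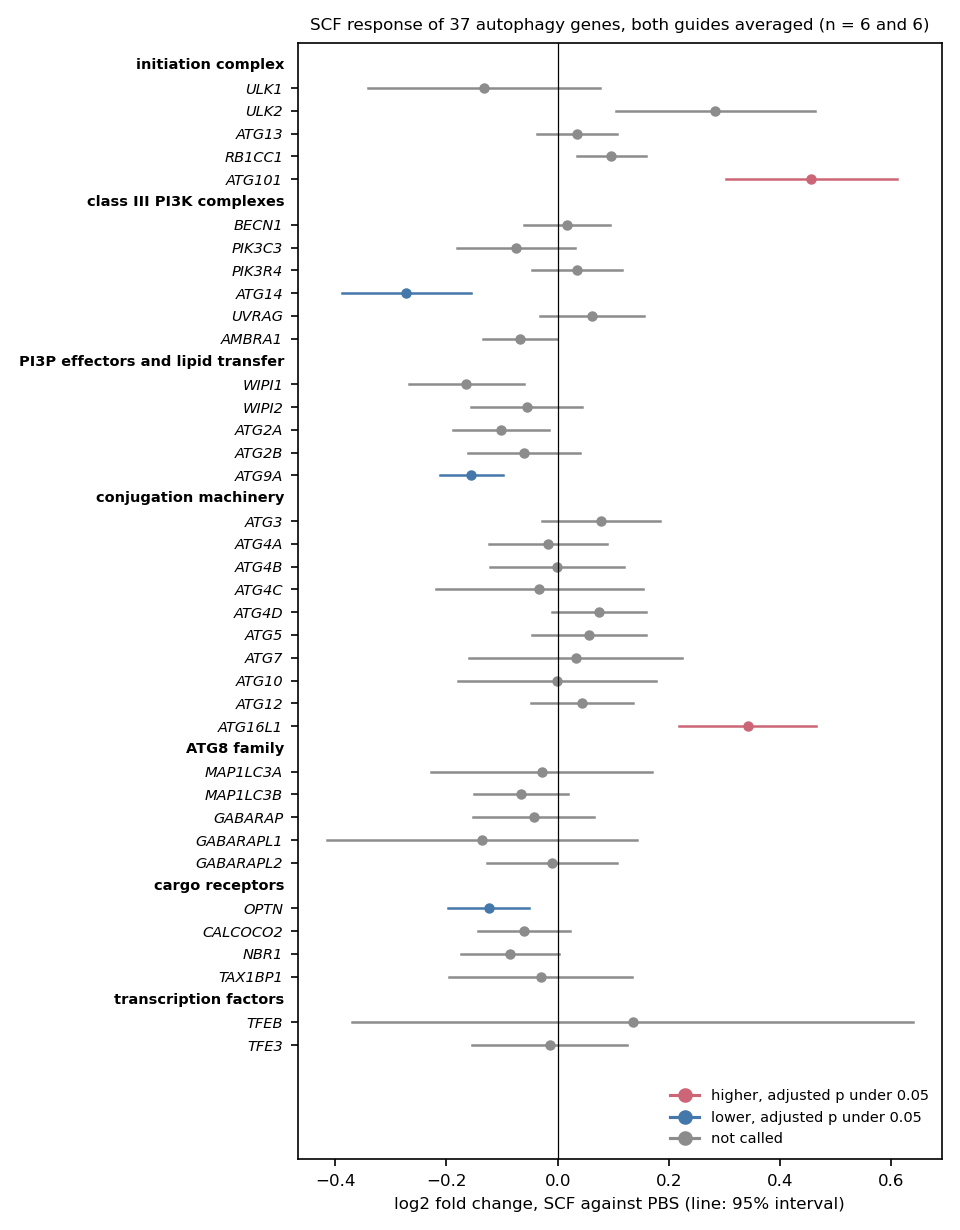
The log2 fold change of each of the 37 autophagy genes after SCF against PBS, averaged over both guides, on the horizontal axis, with genes grouped by role on the vertical axis. Points are estimates and lines their 95% intervals. ATG101 and ATG16L1 (red) lie to the right of 0, ATG14, ATG9A and OPTN (blue) to the left, and the 32 gray genes were not called.

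Within the initiation complex, the kinase assembly that receives the starvation signal, ATG101 changed most. ATG101 is the HORMA domain protein that stabilises ATG13 in the complex (chr12:52069246-52077495, plus strand, GRCh38). ATG101 measured 13.1, 14.6 and 10.9 CPM in sgControl PBS replicates 1, 2 and 3, and 17.4, 18.9 and 17.9 CPM in sgControl SCF. In sgEGR1 cells it measured 13.5, 12.1 and 14.0 CPM after PBS and 17.7, 17.2 and 18.3 CPM after SCF. All 6 SCF libraries lay above all 6 PBS libraries. The means were 13.0 ± 1.34 CPM after PBS and 17.9 ± 0.610 CPM after SCF (SD, n = 6). This was a log2 fold change of 0.46 (SE 0.070, 95% interval 0.30 to 0.61), or 1.37-fold (edgeR adjusted p = 0.00172). The response was 0.49 in sgControl (SE 0.099, edgeR adjusted p = 0.0227) and 0.43 in sgEGR1 cells (SE 0.099, edgeR adjusted p = 0.0437). Each single-guide call rested on few libraries. Leaving out 1 library at a time, the sgControl call held in 8 of 12 fits and the sgEGR1 call in 2 of 12, while the average call held under every alternative tried. Exons of ATG101 overlap an unnamed gene on the opposite strand.

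The promoters of the members with the largest rise (ATG101) and the largest fall (ATG14) were chosen after their values were seen and are printed here to show what the motif search read. Both are RefSeq windows of GRCh38.p14, from 250 bases before to 50 bases after the start, at chr12:52069728-52070027 (plus strand) and chr14:55411781-55412080 (minus strand). Capitals mark the single motif match, an E-box in the ATG14 window, 21 bases before the start.
ATG101 promoter: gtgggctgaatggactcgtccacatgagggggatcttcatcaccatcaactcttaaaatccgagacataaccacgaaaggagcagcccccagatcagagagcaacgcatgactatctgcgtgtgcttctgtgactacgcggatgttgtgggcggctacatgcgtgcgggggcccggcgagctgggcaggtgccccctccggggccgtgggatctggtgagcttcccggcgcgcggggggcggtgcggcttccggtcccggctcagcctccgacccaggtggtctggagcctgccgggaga
ATG14 promoter: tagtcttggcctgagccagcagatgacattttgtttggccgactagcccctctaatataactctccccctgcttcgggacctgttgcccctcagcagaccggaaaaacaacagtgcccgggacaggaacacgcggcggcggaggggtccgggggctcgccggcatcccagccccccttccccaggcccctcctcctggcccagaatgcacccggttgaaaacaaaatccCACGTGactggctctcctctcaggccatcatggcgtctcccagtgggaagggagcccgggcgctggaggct
Motif letters were searched on both strands in the 33 members with a window. The E-box CACGTG, the core that TFEB and TFE3 recognise, was present in 2 (ATG14 and ATG3), 6.06% beside 10.2% of the windows of genes tested. The longer CLEAR palindrome, which contains this E-box, was present in 0, beside 0.801%. The FOXO motif GTAAACA was present in 1 (CALCOCO2), 3.03% beside 2.18%. The AP-1 motif TGANTCA was present in 1 (TFE3), 3.03% beside 4.45%. The EGR motif GCGTGGG was present in 3 (MAP1LC3B, NBR1 and WIPI2), 9.09% beside 9.79%, and in 0 when the gene's own strand alone was read. Of the 5 members called in the average response, ATG14 alone held any of these letters in its window. A match is a description of the sequence and not a binding site.

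The other members of the initiation complex had smaller values. ULK1, the kinase itself, measured 97.7, 77.2 and 75.6 CPM in sgControl PBS and 89.4, 71.4 and 68.4 CPM in sgControl SCF. In sgEGR1 cells it measured 98.5, 79.3 and 80.7 CPM after PBS and 90.3, 74.4 and 70.3 CPM after SCF. Replicate 1 was high in all 4 groups, so the treatment groups overlapped. The SCF library was below the PBS library of the same number in 6 of 6 cases, but these were not read as pairs. ATG2A, ATG9A, ATG14, GABARAPL1, OPTN and WIPI1 were also lower in 6 of 6, and ATG101, ATG16L1 and RB1CC1 higher in 6 of 6. The share over all genes was not computed. The average log2 fold change of ULK1 was -0.13 (SE 0.096), which did not pass (edgeR adjusted p = 0.474). With a term for replicate 1 the same value passed (edgeR adjusted p = 0.00261), and in replicates 2 and 3 alone it was -0.14 (edgeR adjusted p = 0.0274). ULK2, its close relative, measured 7.91, 7.33 and 8.11 CPM in sgControl PBS, 9.10, 9.73 and 8.01 in sgControl SCF, 8.43, 7.75 and 7.26 in sgEGR1 PBS and 11.5, 9.36 and 9.30 in sgEGR1 SCF. One sgControl SCF library lay within the PBS range. The value was 0.28 (SE 0.082, edgeR adjusted p = 0.0516), and 0.0144 was the adjusted p with the term for replicate 1. RB1CC1, the scaffold also called FIP200, measured 160.6, 158 and 157 CPM in sgControl PBS, 168, 170.5 and 179 in sgControl SCF, 168, 164 and 161 in sgEGR1 PBS and 178, 171 and 168 in sgEGR1 SCF. Its value was 0.10 (SE 0.028, edgeR adjusted p = 0.0549, and 0.0155 with the term for replicate 1). ATG13, the adaptor that joins kinase and scaffold, stayed between 136 and 151 CPM in all 12 libraries and was not called.

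**Figure D2:**
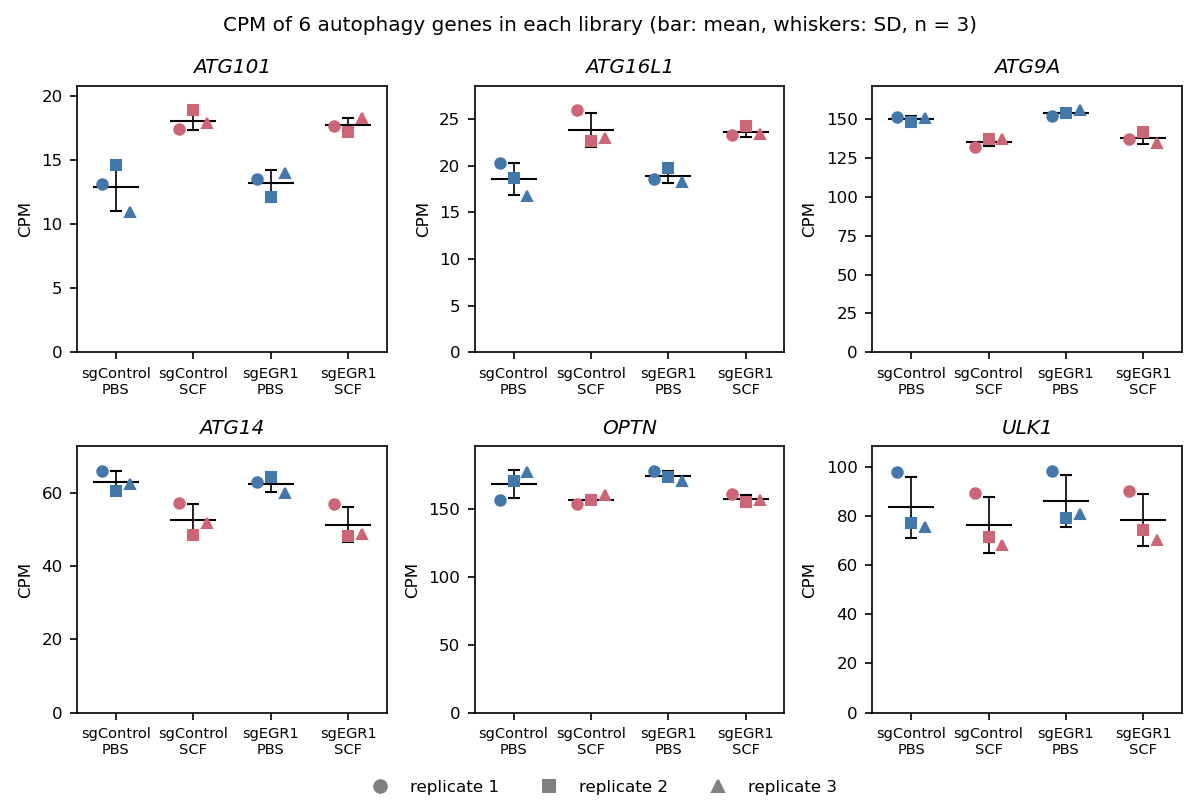
CPM (vertical axes, from 0) of ATG101, ATG16L1, ATG9A, ATG14, OPTN and ULK1 in each of the 12 libraries, by group (horizontal axes) and replicate number (symbols). Bars are means and whiskers SD (n = 3). The SCF libraries (red) of ATG101 and ATG16L1 lie above all PBS libraries (blue), those of ATG9A and ATG14 below them, and those of OPTN and ULK1 overlap them.

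Of the 6 members of the class III PI3K complexes, ATG14 fell and the other 5 were not called. ATG14 is the subunit that directs this lipid kinase to the site of autophagosome formation, in place of UVRAG, which directs it to endosomes (ATG14 lies at chr14:55366391-55411830, minus strand). ATG14 measured 66.2, 60.5 and 62.4 CPM in sgControl PBS and 57.2, 48.5 and 52.0 CPM in sgControl SCF. In sgEGR1 cells it measured 63.1, 64.5 and 60.0 CPM after PBS and 56.9, 48.4 and 48.9 CPM after SCF. All 6 SCF libraries lay below all 6 PBS libraries. Means were 62.8 ± 2.35 CPM after PBS and 52.0 ± 4.15 CPM after SCF (SD, n = 6). The log2 fold change was -0.27 (SE 0.053), or 0.828-fold (edgeR adjusted p = 0.00702). In neither guide group alone did it pass, with -0.26 in sgControl (edgeR adjusted p = 0.0954) and -0.28 in sgEGR1 cells (edgeR adjusted p = 0.0756). Exons of ATG14 overlap FBXO34 on the opposite strand. BECN1, the core of both complexes, measured 73.2, 71.8 and 67.8 CPM in sgControl PBS, 74.2, 69.3 and 70.0 in sgControl SCF, 71.9, 72.3 and 69.3 in sgEGR1 PBS and 76.1, 72.7 and 68.9 in sgEGR1 SCF. Its groups overlapped throughout. The value of 0.02 had a 95% interval of -0.06 to 0.09 (edgeR adjusted p = 0.848), which leaves out a change as large as that of ATG14. The lipid kinase PIK3C3, its partner PIK3R4, UVRAG and the BECN1 regulator AMBRA1 were not called either.

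The 5 members that read PI3P or supply lipid all had negative values in the average response, with a median of -0.10. Over all genes tested, 48.5% of the values were positive. Of the 5, 1 was called, ATG9A. ATG9A is the membrane protein whose vesicles seed the autophagosome (chr2:219219380-219229717, minus strand). ATG9A measured 151, 148 and 151 CPM in sgControl PBS and 132, 137 and 137 CPM in sgControl SCF. In sgEGR1 cells it measured 152, 154 and 156 CPM after PBS and 137, 142 and 134 CPM after SCF. All SCF libraries lay below all PBS libraries. Means were 152 ± 2.57 CPM after PBS and 137 ± 3.21 CPM after SCF (SD, n = 6). The log2 fold change was -0.16 (SE 0.026), or 0.898-fold (edgeR adjusted p = 0.00288). The value was -0.15 in sgControl cells (edgeR adjusted p = 0.0516) and -0.16 in sgEGR1 cells (edgeR adjusted p = 0.0388), and the latter call held in 1 of 12 fits without 1 library. Another annotated gene on the same strand overlaps exons of ATG9A, so its counts could be split. WIPI1, which binds PI3P, measured 25.6, 25.4 and 26.6 CPM in sgControl PBS, 22.7, 22.7 and 24.0 in sgControl SCF, 28.9, 26.2 and 28.6 in sgEGR1 PBS and 26.2, 25.6 and 22.8 in sgEGR1 SCF. Within sgControl cells its groups did not overlap. The average of -0.16 (SE 0.047) just missed the threshold (edgeR adjusted p = 0.0505) and passed with the term for replicate 1 (edgeR adjusted p = 0.0210). WIPI2, which recruits ATG16L1, measured 178, 169.7 and 165 CPM in sgControl PBS, 176, 163 and 153 in sgControl SCF, 194, 170.3 and 171 in sgEGR1 PBS and 180.0, 173 and 164 in sgEGR1 SCF, with a value of -0.06 (edgeR adjusted p = 0.545). The lipid transfer proteins ATG2A and ATG2B were not called.

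Among the 10 members of the conjugation machinery, ATG16L1 rose and 9 were not called. ATG16L1 forms with ATG5 and ATG12 the complex that places ATG8 proteins on the membrane (chr2:233210051-233295674, plus strand), and no other annotated gene overlaps its exons. ATG16L1 measured 20.3, 18.6 and 16.8 CPM in sgControl PBS and 25.9, 22.6 and 22.9 CPM in sgControl SCF. In sgEGR1 cells it measured 18.6, 19.7 and 18.3 CPM after PBS and 23.2, 24.2 and 23.4 CPM after SCF. As with ATG101, the 6 SCF libraries lay above all 6 PBS libraries. Means were 18.7 ± 1.23 CPM after PBS and 23.7 ± 1.22 CPM after SCF (SD, n = 6). The log2 fold change was 0.34 (SE 0.057), or 1.27-fold (edgeR adjusted p = 0.00271). In sgControl cells the value was 0.36 (edgeR adjusted p = 0.0342), a call that held in 4 of 12 fits without 1 library, and in sgEGR1 cells 0.32 (edgeR adjusted p = 0.0579). Its partner ATG5 had overlapping groups. ATG5 measured 39.7, 39.0 and 41.5 CPM in sgControl PBS, 37.7, 38.8 and 44.1 in sgControl SCF, 37.7, 38.9 and 36.6 in sgEGR1 PBS and 39.0, 43.2 and 39.8 in sgEGR1 SCF, with a value of 0.06 (SE 0.047, edgeR adjusted p = 0.549). ATG12 stayed between 34.1 and 39.0 CPM and was not called. ATG7 ranged from 16.5 to 25.0 CPM and ATG10 from 5.24 to 6.82 CPM.

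None of the 5 ATG8 genes, whose products coat the autophagosome and hold its cargo, was called after SCF. All 5 averages were negative, with a median of -0.04, where 48.5% of all genes were positive. MAP1LC3B, which encodes the LC3B protein used as a marker of autophagosomes, measured 69.6, 72.1 and 73.6 CPM in sgControl PBS, 70.8, 72.1 and 63.3 in sgControl SCF, 71.7, 70.8 and 65.9 in sgEGR1 PBS and 65.1, 67.5 and 65.9 in sgEGR1 SCF. The groups overlapped, and the value was -0.07 (SE 0.039, edgeR adjusted p = 0.360). MAP1LC3B shares sequence with MAP1LC3B2, and how reads that fit both were counted was not stated. GABARAPL1, a relative used in later steps, measured 19.3, 14.5 and 15.3 CPM in sgControl PBS, 17.5, 14.4 and 15.0 in sgControl SCF, 22.5, 13.7 and 16.9 in sgEGR1 PBS and 18.5, 13.5 and 13.9 in sgEGR1 SCF. Replicate 1 was highest in each group, and the average of -0.14 did not pass (edgeR adjusted p = 0.603). GABARAP lay between 104 and 127 CPM.

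The 4 cargo receptors, adaptors that tie ubiquitin-marked cargo to ATG8 proteins, all had negative averages with a median of -0.07, and 1 passed. Among all genes tested, 48.5% of the averages were positive. OPTN, a receptor for damaged mitochondria and bacteria (chr10:13099449-13138308, plus strand), measured 157, 171 and 178 CPM in sgControl PBS, 154, 157 and 161 in sgControl SCF, 179, 174 and 171 in sgEGR1 PBS and 161, 155 and 157 in sgEGR1 SCF. The PBS library of sgControl replicate 1 lay within the SCF range. Means were 172 ± 7.77 CPM after PBS and 157 ± 2.85 CPM after SCF (SD, n = 6). The log2 fold change was -0.12 (SE 0.033), or 0.918-fold (edgeR adjusted p = 0.0364). This call was the least stable of the 5. It held in 1 of 12 fits without 1 library, the one without sgControl PBS replicate 1 (edgeR adjusted p = 0.0107), and in the 11 others the edgeR adjusted p was 0.0527 to 0.103. Exons of OPTN overlap CCDC3 on the opposite strand. NBR1, which gathers ubiquitin-marked proteins, measured 229, 229.5 and 238 CPM in sgControl PBS, 208, 231 and 233 in sgControl SCF, 233, 251 and 256 in sgEGR1 PBS and 216, 241 and 225 in sgEGR1 SCF. Its groups overlapped, and the value of -0.09 did not pass (edgeR adjusted p = 0.230, and 0.0324 with the term for replicate 1). TAX1BP1, a related receptor, measured 159, 133 and 143 CPM in sgControl PBS, 158, 132 and 145 in sgControl SCF, 170.3, 147 and 140.1 in sgEGR1 PBS and 168, 140.0 and 130.1 in sgEGR1 SCF, with a value of -0.03 (edgeR adjusted p = 0.877). CALCOCO2 was not called.

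TFEB and TFE3 are the transcription factors that raise autophagy and lysosome genes when mTORC1 is inactive. TFEB measured 1.84, 1.30 and 1.36 CPM in sgControl PBS, 2.28, 1.23 and 1.51 in sgControl SCF, 2.13, 1.04 and 1.57 in sgEGR1 PBS and 2.21, 1.14 and 1.75 in sgEGR1 SCF. These values rest on 28 to 73 counts, and the 95% interval of the average response, -0.37 to 0.64, was the widest among the 37 genes (log2 fold change 0.13, edgeR adjusted p = 0.802). TFE3 lay between 25.0 and 31.1 CPM and was not called.

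Because replicate 1 stood apart, the 5 called genes were also read without it. In replicates 2 and 3 alone the average log2 fold change was 0.49 for ATG101 (edgeR adjusted p = 0.00814), 0.35 for ATG16L1 (edgeR adjusted p = 0.00391), -0.15 for ATG9A (edgeR adjusted p = 0.0118), -0.32 for ATG14 (edgeR adjusted p = 0.000851) and -0.14 for OPTN (edgeR adjusted p = 0.0131). In replicate 1 alone, with 1 library per group and no test, ATG101 differed by 0.41 in sgControl and 0.38 in sgEGR1 cells, ATG16L1 by 0.36 and 0.32, ATG9A by -0.20 and -0.15, ATG14 by -0.21 and -0.15 and OPTN by -0.03 and -0.15. The sign was the same in replicate 1 and the others for all 5 genes, though OPTN in sgControl replicate 1 was near 0. The 5 genes were called on these same libraries, so this is a description and not separate evidence. The erythroid markers SLC4A1 and EPOR were lower in the same SCF libraries, by a log2 fold change of -0.26 (edgeR adjusted p = 0.00856) and -0.14 (edgeR adjusted p = 0.0360). Of the 10 erythroid markers, 9 had negative values, where 48.5% of all genes tested had positive ones. With the term for replicate 1, 6 of the 10 were called lower, beside 8.29% of all genes. Their part in the fall of ATG14, ATG9A and OPTN was not tested.

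No autophagy gene was called between the guides. After PBS, after SCF and for the difference of the SCF response between guides, edgeR called 0 of the 37 genes and 0 (0%) of the 15492 tested. At an unadjusted p under 0.05 stood 0, 1 and 0 of the 37, and 715, 361 and 306 of all genes. With a block for the replicate number these were 1, 3 and 1 of the 37, and 1585, 875 and 598 of all genes. The 1 gene was ATG4A, a protease that trims ATG8 proteins, at -0.16 after SCF (edgeR unadjusted p = 0.0426), which fell outside the rule for named genes and was chosen after its value was seen. DESeq2 called 20, 5 and 4 genes in these comparisons and 0 autophagy genes. With the block, edgeR called 2 (0.0129%), 2 (0.0129%) and 0 (0%) of all genes. Leaving out sgEGR1 SCF replicate 3, it called 42, 30 and 2 of all genes with the block, 51, 38 and 2 with the term for replicate 1, and 1, 2 and 2 with neither. In each of these fits 0 autophagy genes were called. EGR1, the target of the guide, was itself not called by edgeR without a block over all 12 libraries. It measured 5.99 to 10.9 CPM in sgControl PBS and 0.977 to 2.04 CPM in sgEGR1 PBS libraries. The lack of calls between the guides therefore does not show a lack of difference. The log2 differences of the 37 genes ran from -0.12 to 0.13 after PBS, from -0.20 to 0.17 after SCF and from -0.27 to 0.16 for the difference of responses. For the called genes that difference was -0.06 for ATG101 (95% interval -0.37 to 0.25), -0.04 for ATG16L1 (-0.28 to 0.21), -0.01 for ATG9A (-0.12 to 0.10), -0.02 for ATG14 (-0.25 to 0.21) and -0.05 for OPTN (-0.19 to 0.10). These intervals include 0 and are wide beside responses of this size, so they do not show equal responses. The SCF response had the same sign under both guides in 28 of the 37 genes (75.7%), beside 69.7% of all genes tested. After PBS, 28 of the 37 were positive with a median of 0.04, beside 50.2% positive and a median of 0.00 over all genes tested.

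**Figure D3:**
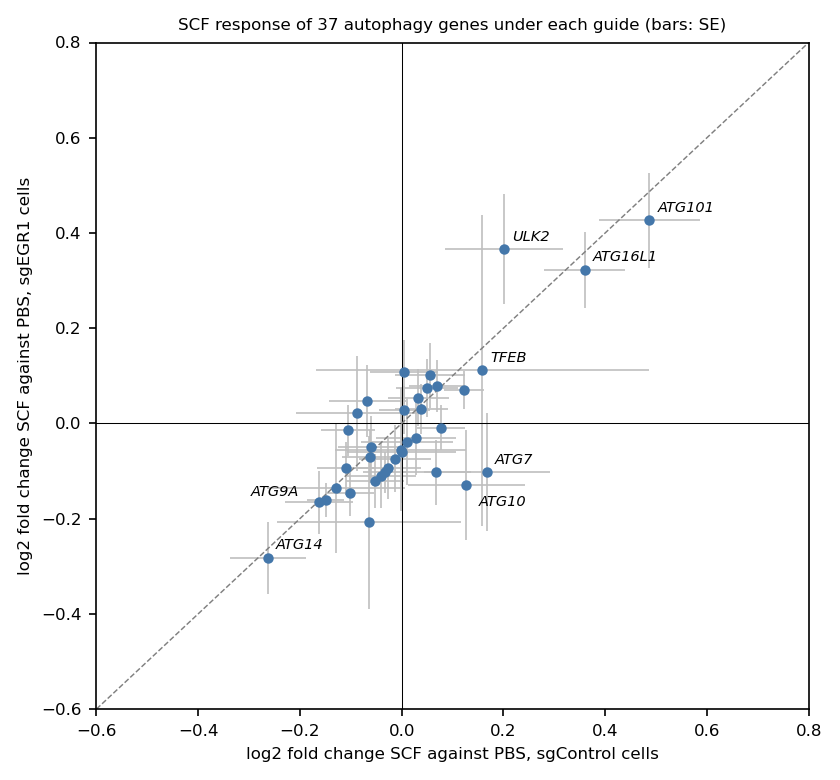
The log2 fold change after SCF in sgControl cells (horizontal axis) and in sgEGR1 cells (vertical axis) for the 37 autophagy genes, with SE bars and the line of equal responses (dashed). ATG101 and ATG16L1 stand at the upper right and ATG14 at the lower left, near the line, while ATG7 and ATG10 are positive in sgControl and negative in sgEGR1 cells within wide errors.

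The autophagy genes also differed by replicate number. With group in the model, 11 of the 37 genes differed between replicate 1 and the others, 7 higher and 4 lower, where edgeR called 26.6% of all genes (13.1% higher, 13.4% lower). All 4 libraries of replicate 1 lay above the 8 others for 6 of the 37 genes and below them for 1, beside 5.54% and 6.24% of all genes. The higher genes included the kinase ULK1, TFEB, the ATG8 gene GABARAPL1, the receptor TAX1BP1, ATG14, WIPI2 and the protease ATG4B. ULK1 averaged 94.0 CPM in the 4 libraries of replicate 1 and 74.7 CPM in the 8 others, and all 4 lay above the 8, with a log2 difference of 0.33 (SE 0.027, edgeR adjusted p = 2.09e-06). GABARAPL1 averaged 19.4 against 14.6 CPM, a log2 difference of 0.40 (SE 0.063, edgeR adjusted p = 0.000426). TFEB averaged 2.12 against 1.36 CPM, a log2 difference of 0.63 (SE 0.16, edgeR adjusted p = 0.00997). TAX1BP1 averaged 164 against 139 CPM (0.24, SE 0.035, edgeR adjusted p = 0.000261), and WIPI2 182 against 166 CPM (0.13, edgeR adjusted p = 0.00303). ATG4B measured 61.9, 52.8 and 53.0 CPM in sgControl PBS, 60.7, 55.8 and 54.6 in sgControl SCF, 58.9, 52.7 and 51.4 in sgEGR1 PBS and 56.7, 49.9 and 52.9 in sgEGR1 SCF (0.17, edgeR adjusted p = 0.000856). ATG14 was higher by 0.14 (edgeR adjusted p = 0.0173).

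On the lower side of the same split, ATG3, the E2-like enzyme that passes ATG8 proteins to lipid, measured 84.6, 99.1 and 94.4 CPM in sgControl PBS, 90.8, 98.2 and 100.01 in sgControl SCF, 86.5, 92.5 and 94.6 in sgEGR1 PBS and 91.6, 104 and 97.4 in sgEGR1 SCF. All 4 libraries of replicate 1 lay below the 8 others, with a log2 difference of -0.14 (edgeR adjusted p = 0.00228). ATG4C, a relative of ATG4B, measured 15.5, 20.2 and 20.3 CPM in sgControl PBS, 15.9, 18.1 and 18.8 in sgControl SCF, 15.2, 19.9 and 16.6 in sgEGR1 PBS and 17.3, 18.2 and 17.0 in sgEGR1 SCF (-0.22, edgeR adjusted p = 0.0205), so that relatives within a protease family moved in opposite directions. NBR1 was lower by 0.10 on this scale (log2 difference -0.10, edgeR adjusted p = 0.0145), and PIK3C3 was the remaining lower gene. The balance of higher and lower calls depended on scaling, while each member called here kept its sign. With library totals alone, 11 autophagy genes were higher and 2 lower, and over all genes the split moved from 2034 higher and 2082 lower to 2623 and 1402. Without sgControl SCF replicate 1, 6 of the 37 were called (5 higher, 1 lower), and calls over all genes also fell, to 18.1%. Megakaryocyte markers summed to 13.0 to 16.7 CPM in replicate 1 and 21.2 to 35.9 CPM in the others. In replicate 1, 1 of the 10 erythroid markers was called higher and 4 lower, beside 13.1% and 13.4% of all genes. The part of these markers in the split was not tested.

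**Figure D4:**
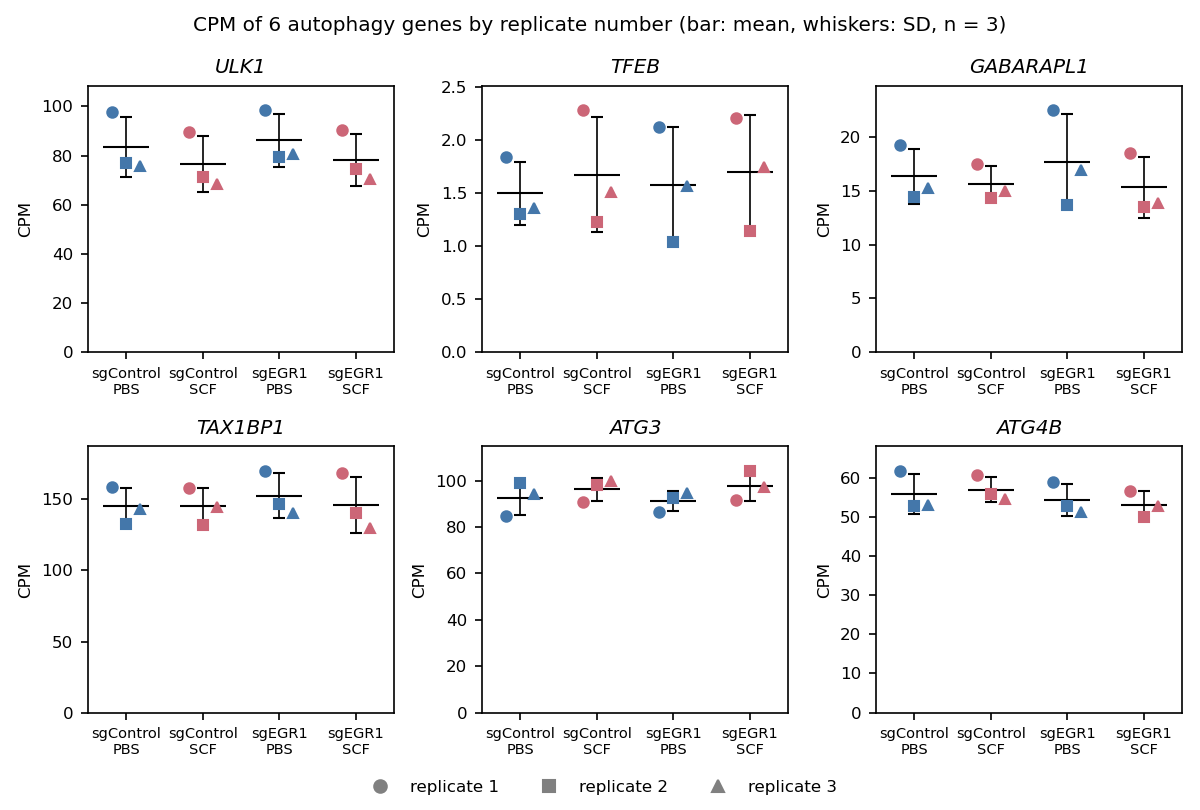
CPM (vertical axes, from 0) of ULK1, TFEB, GABARAPL1, TAX1BP1, ATG3 and ATG4B in the 12 libraries, by group (horizontal axes) and replicate number (symbols), with means and SD (n = 3). The circles of replicate 1 are the highest point of each group for ULK1, TFEB, GABARAPL1, TAX1BP1 and ATG4B and the lowest for ATG3.

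Other genes of the pathway, its regulators and its end point were read from lists beside the 37. Of 27 further autophagy genes, 24 could be tested, and in the average SCF response 3 were higher and 2 lower. The higher ones were WDR45B, a PI3P binding relative of the WIPI proteins, at 0.33 (edgeR adjusted p = 0.000312), RUBCN, an inhibitor of the lipid kinase, at 0.19 (edgeR adjusted p = 0.0231), and VAMP8, which acts in fusion of the autophagosome with the lysosome, at 0.16 (edgeR adjusted p = 0.0450). The lower ones, PINK1 and BNIP3L, act in removal of mitochondria, as do BNIP3 and FUNDC1 of the same list, which were not called. BNIP3 averaged 21.4 CPM after PBS and 21.3 CPM after SCF, and FUNDC1 9.32 and 10.6 CPM. PINK1, the kinase that marks damaged mitochondria, had -0.22 (edgeR adjusted p = 0.00440), and BNIP3L, the receptor that clears mitochondria from maturing red cells, had -0.11 (edgeR adjusted p = 0.0420). Of 23 lysosome genes tested, 0 were called by edgeR, and 3 lay under 0.05 before adjustment, while with the term for replicate 1 there were 1 higher and 3 lower. Among 34 genes of mTORC1 and nutrient sensing, 2 were higher and 2 lower. DDIT4, an inhibitor of mTORC1, had 0.39 (edgeR adjusted p = 0.00678) and RRAGA, a Rag GTPase that activates it, 0.14 (edgeR adjusted p = 0.0326). TSC1 and TSC2, which form the complex that restrains mTORC1, had -0.23 (edgeR adjusted p = 0.00543) and -0.15 (edgeR adjusted p = 0.0358). Against 9.03% of all genes, these were 5 of 24, 0 of 23 and 4 of 34. With the term for replicate 1, where 18.5% of all genes were called, they were 7 of 24, 4 of 23 and 6 of 34. Genes that restrain mTORC1 were thus found both among the higher and among the lower calls.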

How the data were processed

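RNA-seq was read from 12 HUDEP-2 libraries, grouped by the labels alone. The count table names the second guide by a code, which was taken as sgEGR1 because the labels hold no other construct. Reads were aligned by the authors with HISAT (hg38), and the deposited values are estimated counts from StringTie, unscaled and unpooled. 0 deposited values were not whole, so rounding changed nothing. The number of unused columns with per-sample values was 0. A different library kit is named by the labels than by the methods, and use of strand in counting and treatment of multi-mapping reads were not given in the sources used here.

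Here, edgeR 4.0.16 in R 4.3.3 (TMM factors, filterByExpr, quasi-likelihood F test, 1 coefficient per group, all 12 libraries) tested 15492 genes in 7 comparisons, with Benjamini-Hochberg adjustment over all of them and calls at adjusted p under 0.05. The SE is the log2 fold change divided by the square root of F. The scripts were tested on simulated data, with rises set in genes picked at random from those tested. The average response recovered 12.6% of 1.2-fold rises and 58.8% of 1.4-fold rises. The single-guide comparisons recovered 0% of 1.2-fold rises, and of 1.4-fold rises 41.2% in sgControl and 43.7% in sgEGR1 cells. Many changes of this size would thus be missed. The comparison of replicate 1 had a term for it beside group. CPM used TMM-scaled totals. Exon lengths and positions came from GENCODE on GRCh38, promoters from RefSeq (GRCh38.p14). Library totals of 23.5 to 32.04 megacounts limit the precision, mainly for TFEB.

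The members and lists were chosen with earlier results of these data known. Values in all libraries are given for the 16 called members with the smallest adjusted p in any comparison, with or without a replicate block, for ULK1, BECN1, WIPI1, ATG5, MAP1LC3B, GABARAPL1 and TFEB, and for the member of each role with the smallest p. These came to 20 members.

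Whether replicate numbers pair the libraries was checked from correlations of residuals. Between guides they came to 0.232, 0.103 and 0.119 (PBS libraries) and 0.269, 0.102 and 0.126 (SCF libraries) in the order of the numbers. Each was above 0.1, the mark used here for reading libraries as paired. Correlations between libraries of unlike number were not computed, and replicate 1 stood apart in every group, so these values cannot show pairing. The methods of the study name no block. The main fit held none, and fits with a block are given beside it. Between SCF and PBS not all exceeded 0.1. Alternatives were DESeq2 1.42.0, other scaling, other filters, the replicate block, the term for replicate 1, replicates 2 and 3 alone, and leaving out each library.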

Additional observations from a re-analysis of the deposited data

How the results depend on the processing

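In the average SCF response the calls of ATG101, ATG16L1, ATG9A and ATG14 held in 22 of 22 alternatives and that of OPTN in 8 of 22. The 5 members called became 8 with DESeq2 (11.6% of all genes called), 10 with a term for replicate 1 (18.5%), 9 with that term once sgEGR1 SCF replicate 3 was also left out (15.4%), and 4 to 5 without 1 library. Called members in sgControl cells went from 2 to 4 with DESeq2 (4.9% of all genes), 1 without a filter (1.19%), 6 with the term for replicate 1 (8.32%), 4 with that term and without sgEGR1 SCF replicate 3 (7.49%), and 0 to 2 without 1 library (0 without sgControl PBS replicate 3, sgControl SCF replicate 2 or sgControl SCF replicate 3). In sgEGR1 cells they went from 2 to 5 with DESeq2 (4.99%), 1 with library totals (2.78%), 0 without a filter (1.09%), 7 with the term for replicate 1 (8.56%), 3 with that term and without sgEGR1 SCF replicate 3 (4.92%), and 0 to 2 without 1 library (0 without sgControl SCF replicates 2 or 3, any sgEGR1 PBS library, or sgEGR1 SCF replicates 2 or 3). Without 1 library, the log2 fold change of ULK1 in sgControl cells ran from -0.25 without sgControl SCF replicate 1 to 0.00373 (edgeR adjusted p = 0.995) without sgControl PBS replicate 1. The 11 members called for replicate 1 became 6 to 12 without 1 library, 6 of them without sgControl SCF replicate 1. The EGR motif count went from 3 to 0 on the given strand. The causes were not tested beyond what each alternative leaves out.

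SCF and PBS libraries were not read as paired, since over all genes tested their residual correlations were 0.272, 0.0077 and 0.108 in sgControl and 0.230, 0.075 and 0.062 in sgEGR1 cells. Over the 37 members alone they were higher, 0.793, 0.454 and 0.571 in sgControl and 0.854, 0.762 and 0.558 in sgEGR1 cells. Between guides the members gave 0.738, 0.544 and -0.049 after PBS and 0.793, 0.577 and 0.125 after SCF. A replicate block gave 5 called members in sgControl cells (7.64% of all genes), 5 in sgEGR1 cells (7.97%) and 11 on average (18.1%), and without sgEGR1 SCF replicate 3 also 4 (7.22%), 1 (4.06%) and 8 (14.3%). For the guides and the difference of responses it changed no member's call, and 0 members were called under all 22 alternatives.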

Other observations

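Lysosome genes, the end point of autophagy, differed between replicate 1 and the others. Of 23 tested, 11 were higher and 2 lower in replicate 1, where edgeR called 13.1% of all genes as higher and 13.4% as lower. In the average SCF response with the same term for replicate 1, 1 was higher and 3 lower. The higher ones included the glycogen-degrading enzyme GAA (log2 difference 0.59), the membrane protein CD63 (0.42), the chloride transporter CLCN7 (0.28) and the proteases CTSF (0.27) and CTSB (0.24). CTSZ (-0.22) and the calcium channel MCOLN1 (-0.17) were the 2 lower ones. SQSTM1, which encodes the cargo receptor p62, was higher in replicate 1 by 0.37 (edgeR adjusted p = 9.82e-07) and was not called in the average SCF response (edgeR adjusted p = 0.915).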
